A study of Mus musculus with 112 samples.

Results

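The genes of mitochondrial protein import were taken as every gene whose symbol begins with Timm or Tomm and that had a probe set assigned to that symbol alone. This gave 25 genes, 15 Timm and 10 Tomm, of the 19938 genes measured in mouse heart. The rule rests on symbols alone. Timm10b is not among them because its only probe set is shared with Dnhd1. Where a gene had several probe sets (4 of the 25), the one with the largest mean signal stood for it. The array's own name was kept for Tomm70a. Of the 25, Timm8a2 was dim: its mean log2 signal of 2.73 lay at the 4.09 percentile of all genes, and the other 24 lay above the 40th percentile.

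Most mitochondrial proteins are made in the cytosol and enter the organelle through translocases. The translocase of the outer membrane (TOM) recognizes precursors through the receptors Tomm20, Tomm22 and Tomm70a and passes them through the Tomm40 channel. Precursors with a presequence then go to the TIM23 translocase of the inner membrane, whereas carrier proteins are escorted by small chaperones of the intermembrane space to the TIM22 translocase. Cardiomyocytes are rich in mitochondria, and heart mitochondria depend on this route for nearly all of their proteins.

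Hearts came from male mice of 7 strains, the inbred 129S1/SvImJ, BALB/cJ (Balbc/J in the labels), C57BL/6J (C57BL6/J in the labels), C3H/HeJ, CBA/J and DBA/2J and the hybrid B6C3F1/J, a cross of C57BL/6J with C3H/HeJ. In each strain 8 mice were on caloric restriction (CR) and 8 on the control diet, and a single mouse gave the RNA of each array, which makes the spread behind each p-value one between animals. All mice arrived at 6 weeks of age, received 84 kcal per week of the AIN93M-based diet until 8 weeks, and were killed at 22 weeks after an overnight fast, when the diets had differed for 14 weeks. A further food cut was made in the CR groups of C57BL/6J and 129S1/SvImJ, and BALB/cJ mice were fed more on both diets. Signals are log2 values per probe set, so a difference of 1 is a doubling, and levels of different genes were not compared.

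DBA/2J CR replicate 7 correlated with its group at only 0.26 and was left out, which left 55 CR and 56 control arrays. Among these, CBA/J control replicate 1 correlated with its group at 0.89 and the median array at 0.993, and 6 arrays in all stood apart. In DBA/2J CR the rule for standing apart was applied with replicate 7 in the group and could flag only the lowest array. DBA/2J CR replicate 6, at 0.98 against 0.991 to 0.994 in the others kept, is therefore not among the 6. Myl2, Tnnt2 and the other 5 of 7 ventricular cardiomyocyte markers lay above the 40th percentile of all genes, which fits the labelled tissue. Myh6, Tnnt2, Tnni3 and Actc1 of that list are not restricted to the ventricle, so its mean does not measure ventricular cells alone. Markers of other parts of the tissue were uneven: the mean log2 signal of 6 atrial markers was 7.76 ± 1.73 in CR hearts of C57BL/6J and 9.90 ± 1.47 in control hearts of C57BL/6J (SD, n = 8 each). Among the control hearts of C57BL/6J alone that mean ran from 7.08 to 11.18, and the labels say heart without naming the part taken. In such tissue samples fewer cells of a type and less RNA per cell cannot be told apart.

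CR hearts had higher signals of import genes across the strains. With the mean of the 7 within-strain differences as the effect (limma, Benjamini-Hochberg adjustment over all 19938 genes, threshold 0.05), 12 of the 25 genes were higher in CR hearts and 0 were lower. Of all genes tested, 7.69% were higher and 4.34% lower, so the share of import genes that were higher (48.0%) was above that of all genes. The genes tested include dim ones, and a share among genes of like signal is not given. The differences were positive for 22 of the 25 genes, against 48.4% of all genes. Their median was 0.10 and their mean 0.11, against a median of -0.003 over all genes. The 12 comprised 8 of the 15 Timm and 4 of the 10 Tomm genes, and the effects lay between 1.07-fold and 1.22-fold. With DBA/2J CR replicate 7 included, 4 of the 12 passed (Timm22, Timm8a1, Timm9 and Tomm40l), and without the strain 129S1/SvImJ 7 genes were higher. The shares of all genes called in these alternatives are not given.

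**Figure D1:**
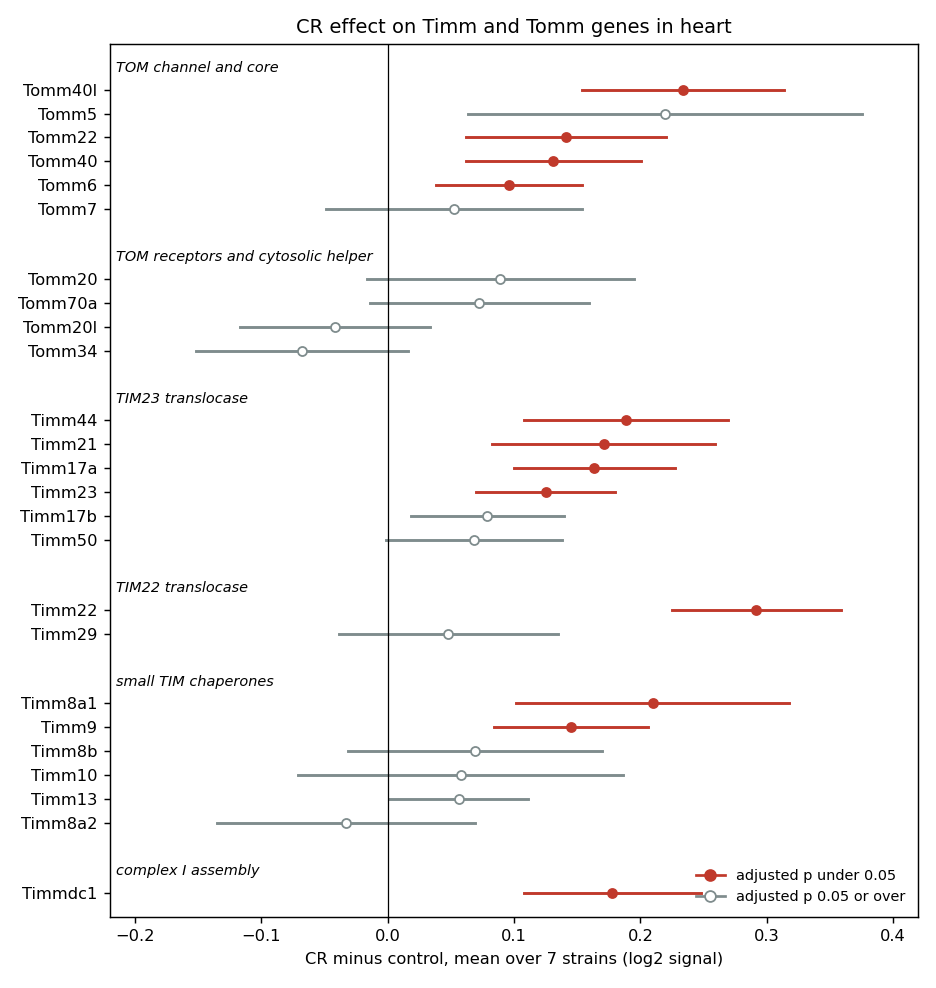
CR effect on each import gene, grouped by role: the x axis is CR minus control averaged over the 7 strains in log2 signal, points are estimates and lines their 95% confidence intervals from limma (55 CR and 56 control arrays), filled red where the adjusted p was under 0.05. The 12 filled points lie between 0.10 (Tomm6) and 0.29 (Timm22), and no interval of a gene on the negative side excludes 0.

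Among the TIM22 genes, Timm22, the channel of the carrier translocase, had the smallest adjusted p of the 25. Over all strains its signal ran from 6.35 to 7.28 (median 6.76) in CR hearts and from 6.03 to 6.90 (median 6.50) in control hearts. The ranges of the diets overlapped in 6 strains, and in C57BL/6J every CR heart (6.52 to 6.87, median 6.73) lay above every control heart (6.03 to 6.45, median 6.40). The difference across strains was 0.29 ± 0.03 (SE), a 1.22-fold increase, with adjusted p = 3.83e-11, and it was positive in 7 of 7 strains, from 0.13 in DBA/2J to 0.38 in 129S1/SvImJ. Timm22 was one of the genes the study had picked on these hearts, so its direction here is not independent evidence. Timm29, a subunit of the same complex, showed 0.05 ± 0.04 and adjusted p = 0.541.

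In the TIM23 translocase, 4 of 6 genes were higher in CR hearts. Timm17a, which lines the translocation path with Timm23, had 9.68 to 10.48 (median 10.22) in CR hearts and 9.64 to 10.56 (median 10.02) in control hearts. The medians were apart but the ranges nearly coincided, and only in 129S1/SvImJ did each CR heart (10.11 to 10.31) exceed each control heart (9.88 to 10.04). Its difference was 0.16 ± 0.03 (SE, adjusted p = 7.43e-05), positive in 7 of 7 strains. Timm23, the central subunit, had 10.62 to 11.61 (median 11.30) in CR hearts and 10.60 to 11.53 (median 11.16) in control hearts, a difference of 0.12 ± 0.03 (SE, adjusted p = 0.000561), positive in 7 of 7 strains. The ranges of Timm23 overlapped in each strain. Timm44 tethers the matrix import motor to the channel, and Timm21 links the channel with the TOM complex. Timm44 had 7.15 to 8.22 (median 7.71) in CR hearts and 6.11 to 7.93 (median 7.55) in control hearts, and differed by 0.19 ± 0.04 (SE, adjusted p = 0.000371, 7 of 7 strains positive). Its lowest control value, 6.11, belonged to CBA/J control replicate 1, the array that stood apart, and the next lowest in CBA/J was 7.49. Timm44 means in CBA/J were 7.62 in CR hearts and 7.45 in control hearts, but the medians were 7.66 and 7.64. The positive sign of Timm44 in CBA/J therefore rests on that array. Timm21 had 7.96 to 8.94 (median 8.43) in CR hearts and 7.56 to 8.74 (median 8.24) in control hearts, and differed by 0.17 ± 0.04 (SE, adjusted p = 0.00415), with positive differences in 5 strains and differences of -0.03 in C3H/HeJ and -0.02 in DBA/2J. Timm17b, the X-linked paralog of Timm17a, and the receptor Timm50 gave 0.08 ± 0.03 and 0.07 ± 0.04 (SE) and did not pass (adjusted p = 0.0786 and 0.209).

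In the TOM complex, 4 of 6 genes of the channel and core were higher in CR hearts and 0 of the 4 genes of the other receptors, the helper and Tomm20l were (limma, also 0 at an unadjusted p under 0.05). Tomm40l, a paralog of the channel protein, had 6.54 to 8.05 (median 7.26) in CR hearts and 6.51 to 7.93 (median 7.09) in control hearts. The strains spread these ranges, and within 129S1/SvImJ each CR heart (7.09 to 7.59) was above each control heart (6.69 to 7.05). Tomm40l differed by 0.23 ± 0.04 (SE), or 1.18-fold, with adjusted p = 6.09e-06 and a positive difference in 7 of 7 strains. Tomm40, the channel itself, differed by 0.13 ± 0.03 (SE, adjusted p = 0.00518, 6 strains positive), and in 129S1/SvImJ its CR hearts (7.53 to 7.73) also lay above the control hearts (7.31 to 7.52). Tomm22, the central receptor that holds the complex together, differed by 0.14 ± 0.04 (SE, adjusted p = 0.00955, 5 strains positive), and the small subunit Tomm6 by 0.10 ± 0.03 (SE, adjusted p = 0.0169, 6 strains positive). Tomm5, another small subunit, had a difference of 0.22 ± 0.08 (SE, 95% confidence interval 0.06 to 0.38) that missed the threshold at adjusted p = 0.051, and Tomm7 gave 0.05 ± 0.05.

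The presequence receptor Tomm20 gave 0.09 ± 0.05 (SE, adjusted p = 0.297) and the carrier receptor Tomm70a 0.07 ± 0.04 (SE, adjusted p = 0.303). The 2 genes of this group with negative differences were Tomm20l, a paralog of Tomm20 (-0.04 ± 0.04, adjusted p = 0.538), and Tomm34, a cytosolic co-chaperone of precursors (-0.07 ± 0.04, adjusted p = 0.322). Without CBA/J control replicate 1, which read low for Tomm34, that gene was called lower in CR hearts (-0.10, adjusted p = 0.0249). The intervals of all 4 included 0, and that for Tomm20 reached up to 0.19, so a change of the size seen in Tomm40 was not excluded by its own interval.

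Of the 6 small chaperone genes, 2 were higher in CR hearts. Timm9, which forms a ring with Timm10 to carry hydrophobic precursors, had 6.34 to 7.25 (median 6.80) in CR hearts and 6.13 to 7.09 (median 6.63) in control hearts, a difference of 0.15 ± 0.03 (SE, adjusted p = 0.000273) that was positive in 7 of 7 strains. Timm8a1, the mouse counterpart of the human deafness-dystonia peptide, had 5.74 to 7.33 (median 6.47) in CR hearts and 5.44 to 7.31 (median 6.21) in control hearts, and differed by 0.21 ± 0.05 (SE, adjusted p = 0.00418, 7 of 7 strains positive). Ranges overlapped in each strain for both genes. Timm10, the partner of Timm9, had a difference of 0.06 ± 0.06 (SE, adjusted p = 0.634). Timm8b, a relative of Timm8a1, and Timm13, the partner of Timm8a1 in another ring, gave 0.07 ± 0.05 and 0.06 ± 0.03 (adjusted p = 0.421 and 0.187), and the dim Timm8a2 gave -0.03 ± 0.05. Timmdc1 carries a domain like that of the Tim17 proteins but acts in the assembly of respiratory complex I. It had 8.41 to 9.32 (median 8.99) in CR hearts and 7.90 to 9.20 (median 8.81) in control hearts, with a difference of 0.18 ± 0.04 (SE, adjusted p = 0.000106, 7 of 7 strains positive). In CBA/J the Timmdc1 means were 9.05 in CR hearts and 8.91 in control hearts. CBA/J control replicate 1 read 7.90 and the next lowest control heart of that strain 8.97, so the difference in CBA/J rests largely on that array.

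Genes with several probe sets gave like values from each of them. The other probe set of Timm17a differed by 0.13 ± 0.03 (SE), that of Timm8a1 by 0.23 ± 0.05, and that of Tomm20 by 0.08 ± 0.05. Of the other 3 probe sets of Timm23, 1 held the same values as the main one and the others differed by 0.13 ± 0.03 each. Near-identical copies of a gene can hybridize to the same probes, so signals of these 4 genes may come from more than 1 locus. The locus of each probe set was not examined, also for genes with a single probe set such as Tomm22. In the RefSeq annotation (GRCm38.p6) the span of Tomm40l overlaps Nr1i3 and Apoa2, that of Timm21 overlaps Fbxo15, that of Tomm6 overlaps Tomm6os, Frs3 and Usp49, and those of Timm9 and Tomm20l share 51 bases at chr12:71123172-71123222. Whether the probes lie in the shared stretches was not examined.

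**Figure D2:**
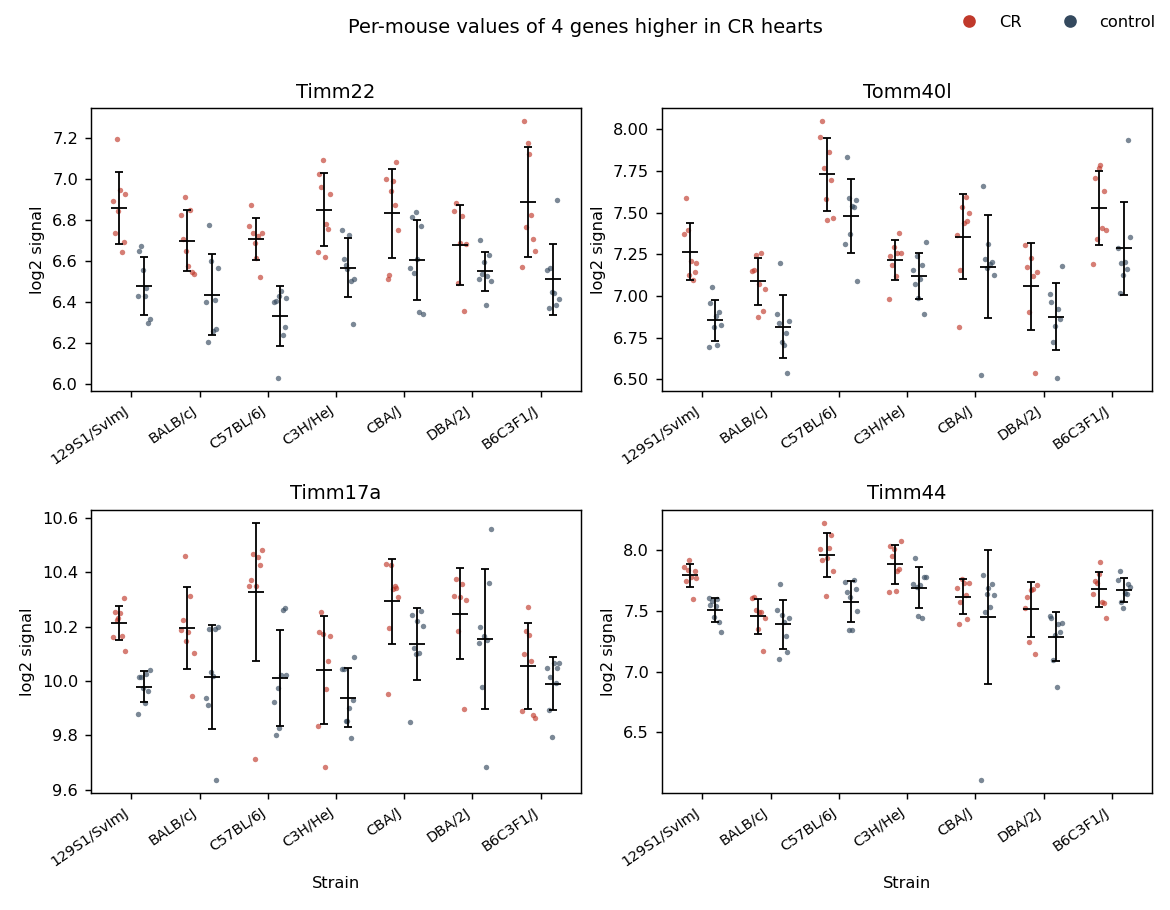
Log2 signal (y axis) of Timm22, Tomm40l, Timm17a and Timm44 in each heart by strain (x axis), CR to the left in red and control to the right in dark blue, with black bars for mean ± SD (n = 8, and 7 for DBA/2J CR). CR means lie above control means in each strain for all 4 genes, and most ranges overlap. The CBA/J control mean of Timm44 is lowered by replicate 1 at 6.11.

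Sequences upstream of the start sites are shown for 4 of the genes that were higher in CR hearts: Timm22 had the smallest p, Timm23 and Tomm22 hold words of the ETS family, to which the mitochondrial regulator GABP belongs, and Timm8a1 holds a different pair of words. Each is the stretch of 250 bases before a RefSeq start site in GRCm38.p6, read 5′ to 3′ on the gene's strand, for Timm22 at chr11:76406675-76406924 (plus strand), Timm23 at chr14:32201892-32202141 (minus strand), Tomm22 at chr15:79670618-79670867 (plus strand) and Timm8a1 at chrX:134541671-134541920 (minus strand). Capitals mark the words CCGGAAG (ETS core), CACGTG (E-box) and GGGGCGGG (GC box of Sp1) on either strand.
Timm22: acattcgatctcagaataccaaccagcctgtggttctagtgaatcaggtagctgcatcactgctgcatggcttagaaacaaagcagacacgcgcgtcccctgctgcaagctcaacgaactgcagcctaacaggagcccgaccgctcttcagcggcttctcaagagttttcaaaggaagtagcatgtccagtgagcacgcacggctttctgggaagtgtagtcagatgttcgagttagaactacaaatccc
Timm23: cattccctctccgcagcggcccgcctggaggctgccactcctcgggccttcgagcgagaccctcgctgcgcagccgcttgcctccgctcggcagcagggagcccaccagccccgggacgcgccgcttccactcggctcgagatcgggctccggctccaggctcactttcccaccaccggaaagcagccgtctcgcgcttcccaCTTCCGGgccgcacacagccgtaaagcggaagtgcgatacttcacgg
Tomm22: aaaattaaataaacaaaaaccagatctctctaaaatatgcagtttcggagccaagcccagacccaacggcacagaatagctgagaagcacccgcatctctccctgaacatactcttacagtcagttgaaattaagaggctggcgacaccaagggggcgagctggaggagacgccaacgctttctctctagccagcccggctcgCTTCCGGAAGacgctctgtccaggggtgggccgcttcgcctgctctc
Timm8a1: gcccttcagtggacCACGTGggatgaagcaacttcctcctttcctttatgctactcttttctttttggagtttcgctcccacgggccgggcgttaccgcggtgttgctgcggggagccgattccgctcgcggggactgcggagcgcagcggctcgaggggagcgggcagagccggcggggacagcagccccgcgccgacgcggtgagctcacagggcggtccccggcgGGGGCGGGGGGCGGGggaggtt
RefSeq windows of 300 bases, 250 before to 50 after a start, were given for 22 of the 25 genes (24 windows, with 2 starts each for Timm22 and Tomm34) and not for Timm21, Tomm7 and Tomm40l. The ETS core was found in windows of 9 of the 22 genes (10 of 24 windows), against 8.9% of all 32851 mouse windows. It stood in 3 of the 10 genes that were higher in CR hearts and had a window (Timm23, Timmdc1 and Tomm22) and in 6 of the 12 that were not called (Timm10, Timm29, Timm8a2, Timm8b, Tomm34 and Tomm70a). The CTTCCGGAAG stretch upstream of Tomm22 holds the word on both strands, with overlap. The GC box was found in 7 genes (16.5% of all windows), the E-box in 5 (7.2%), the NRF1 core GCGCATGC in 1, Timm13 (2.7%), the YY1 word AAGATGGC in 1, Timm50 (2.7%), the word TCAAGGTCA of the estrogen-related receptors in 1, Timm8b (0.4%), and the cAMP response element TGACGTCA in 0 (1.8%). Among the genes higher in CR hearts, the windows of Timm22, Timm17a, Timm44 and Tomm6 held none of the 7 words. A matched word is a description of the letters only.

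Within single strains, all 10 calls came from 129S1/SvImJ, in which the fit on its 16 hearts alone called 9 of the 25 genes higher and 1 lower in CR hearts (adjusted p under 0.05). Of all genes, 3.88% were higher and 2.94% lower in that strain. Tomm40l (0.41 ± 0.08, adjusted p = 0.00191), Timm8a1 (0.43 ± 0.09, adjusted p = 0.00506), Timm22 (0.38 ± 0.08), Timm44 (0.28 ± 0.06) and Timm17a (0.23 ± 0.05) had the smallest p (SE, n = 8 each). Tomm34 was the gene called lower: it had 7.32 to 7.63 (median 7.45) in CR hearts and 7.50 to 7.81 (median 7.65) in control hearts of 129S1/SvImJ, a difference of -0.21 ± 0.06 (SE, adjusted p = 0.0485). With each of the 16 arrays left out in turn, 5 to 9 of the 25 genes were called higher, and 1027 to 1521 of all genes were called. Timm22 and Tomm40l passed each time, and Tomm34 passed in only 2 of the 16. White adipocyte markers in this strain averaged 6.57 ± 0.13 in CR hearts and 6.87 ± 0.15 in control hearts (SD, n = 8 each), with Adipoq and Lep of the 8 markers below the 40th percentile of all genes. The mean of the 7 endothelial markers separated the diets in 129S1/SvImJ, with 8.46 to 8.63 in CR hearts and 8.70 to 9.05 in control hearts. The mean of the 6 macrophage markers was 6.88 ± 0.19 in CR hearts and 6.67 ± 0.08 in control hearts (SD, n = 8 each), and the part of both lists in the calls was not tested. In a fit added after seeing the data, with the mean signals of the atrial markers and of the white adipocyte markers held as covariates, 0 of the 25 genes passed in 129S1/SvImJ, 30 of all genes did, and the mean difference over the 25 genes was 0.09 in place of 0.17. Because the white adipocyte mean itself differed between the diets in this strain, that fit cannot separate diet from this mean. Whether the list measures adipocytes alone was not tested.

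In the other 6 strains the fit on one strain's hearts alone called 0 of the 25 genes. The share of all genes called in either direction was 0.0% in BALB/cJ, 0.251% in C57BL/6J, 0.0552% in C3H/HeJ, 0.015% in CBA/J, 0.01% in DBA/2J and 0.908% in B6C3F1/J. At an unadjusted p under 0.05 the counts of import genes were 5 in BALB/cJ, 10 in C57BL/6J, 3 in C3H/HeJ, 1 in CBA/J, 1 in DBA/2J and 3 in B6C3F1/J, against 16 in 129S1/SvImJ. Shares of all genes at that unadjusted threshold are not given, so whether these counts exceed the background cannot be read from them. One fit of all 14 groups, which pools the spread between mice, called 6 genes higher in C57BL/6J (Timm17a, Timm22, Timm23, Timm44, Timmdc1 and Tomm22, with 2.77% of all genes higher there), Timm22 and Tomm40l higher in 129S1/SvImJ (1.41%), and in B6C3F1/J Timm22 higher (6.3%) and Tomm34 lower (7.89%). In C57BL/6J the atrial marker mean was 2.14 lower, the white adipocyte marker mean 0.99 lower and the ventricular marker mean 0.50 higher in CR hearts than in control hearts, and their part in the calls of the 14-group fit was not tested. In the same added fit for C57BL/6J alone, with the atrial and white adipocyte means as covariates, 0 of the 25 genes passed (9 of all genes did) and the mean difference over the 25 was 0.13. The fit on C57BL/6J alone had called 0 of the 25 without covariates too, so it does not bear on the 6 calls of the 14-group fit.

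**Figure D3:**
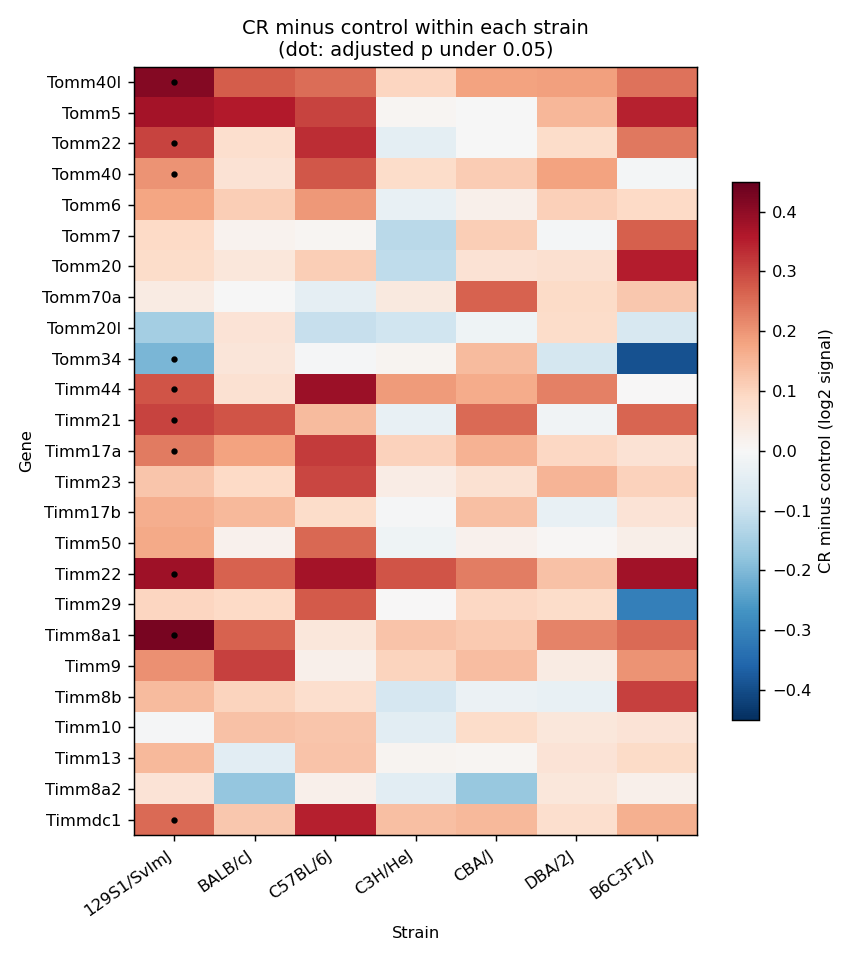
CR minus control (colour, log2 signal) for each import gene (rows, grouped by role) in each strain (columns), with a dot where the fit on that strain alone gave an adjusted p under 0.05. The 10 dots lie in 129S1/SvImJ, Timm22 is positive in every column, and the most negative cell is Tomm34 in B6C3F1/J, at -0.39.

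The sign of the difference was shared more widely than the calls. Over 25 genes and 7 strains, 141 of 175 differences were positive. These differences share arrays and are not separate observations. Of all 19938 genes, between 9794 (129S1/SvImJ) and 10464 (C3H/HeJ) had a positive difference within a strain. The mean difference over the 25 genes was 0.17 both for 129S1/SvImJ and for C57BL/6J, 0.12 in BALB/cJ, 0.11 in B6C3F1/J, 0.09 in CBA/J, 0.08 in DBA/2J and 0.02 in C3H/HeJ. With the atrial and white adipocyte means as covariates within each strain the order changed, to 0.16 in B6C3F1/J, 0.15 in CBA/J, 0.13 in C57BL/6J and in BALB/cJ, 0.09 in 129S1/SvImJ, 0.06 in DBA/2J and 0.05 in C3H/HeJ. Without covariates, in C3H/HeJ 14 genes were positive and 11 negative, which is near the share of all genes in that strain. The mean of the 25 genes in a heart ran from 7.67 to 7.92 in CR hearts and from 7.55 to 7.76 in control hearts of 129S1/SvImJ, and from 7.45 to 8.06 in CR hearts and from 7.51 to 7.97 in control hearts of B6C3F1/J. The 2 diets overlapped in every strain on this measure.

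**Figure D4:**
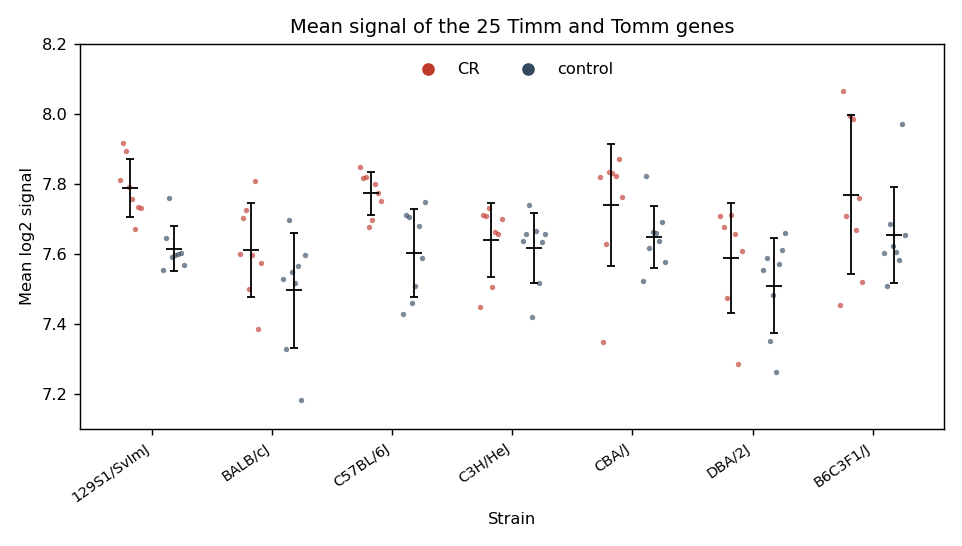
Mean log2 signal of the 25 import genes in each heart (y axis) by strain (x axis), CR to the left in red and control to the right in dark blue, black bars mean ± SD (n = 8, and 7 for DBA/2J CR). Means are higher in CR hearts in each strain, by 0.02 in C3H/HeJ to 0.17 in 129S1/SvImJ, with overlapping hearts.

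Whether the CR effect differed between strains was tested directly. The strain by diet interaction (moderated F test in limma) passed for 0 of the 25 genes, against 0.712% of all genes. Tomm34 and Timm29 were under 0.05 before adjustment (limma adjusted p = 0.257 for Tomm34 and 0.304 for Timm29), a count of 2. Without the 6 arrays that stood apart the same test called 3 (Timm29, Timm44 and Timmdc1), with 9.18% of all genes called, and with array weights it called 4 (Timm29, Timm44, Tomm34 and Tomm40), with 26.1% of all genes called. The counts in single strains therefore do not show that strains responded differently.

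Strains differed in the level of many import genes. Among control hearts 18 of the 25 genes (72.0%) differed between the 7 strains (F test, adjusted p under 0.05), against 56.5% of all genes, and among CR hearts 19 (76.0%) did, against 60.7%. The 6 genes with the smallest p in control hearts were Tomm20l, Tomm40l, Timm23, Tomm7, Timm9 and Tomm34. The highest strain was the same on both diets for 12 genes and the lowest for 11.

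Tomm20l stood out in 129S1/SvImJ. Its signal was 5.74 to 5.96 (median 5.87) in control hearts of 129S1/SvImJ, above each control heart of the other strains, of which the highest was 5.61. The difference from the mean of the other strains was 0.62 ± 0.07 (SE, adjusted p = 8.67e-10) in control hearts and 0.49 ± 0.08 (adjusted p = 1.1e-05) in CR hearts. Timm9, which lies next to Tomm20l on chromosome 12, was also highest in 129S1/SvImJ on both diets, by 0.28 ± 0.06 in control hearts (adjusted p = 0.000366) and 0.36 ± 0.07 in CR hearts (adjusted p = 5.7e-05). In control hearts of 129S1/SvImJ Timm9 had 6.62 to 7.09 (median 6.93), which overlapped the other strains. Tomm34 was also highest in 129S1/SvImJ, and it averaged 7.66 in control hearts of that strain and 7.11 in those of the others, a difference of 0.54 ± 0.10 (SE, adjusted p = 7.14e-05). Its lowest control mean, 6.90 in CBA/J, rested partly on CBA/J control replicate 1 at 5.50, while the other 7 ranged from 6.90 to 7.28. Whether strain variants lie under these probes was not examined.

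Tomm40l averaged highest in C57BL/6J, at 7.73 in CR hearts and 7.48 in control hearts, and lowest in BALB/cJ among control hearts (6.82) and in DBA/2J among CR hearts (7.06). Control hearts of C57BL/6J exceeded the mean of the other strains by 0.46 ± 0.08 (SE, adjusted p = 1.43e-05), and by 0.68 with both of those marker means as covariates (adjusted p = 1.33e-07). Timm23 averaged 11.31 in CBA/J, the highest control mean, 10.94 in DBA/2J, the lowest, and 10.99 in C57BL/6J. CBA/J and 129S1/SvImJ (11.28) differed by less than the median SD within a group, 0.11. Tomm7, a small TOM subunit, averaged highest in control hearts of B6C3F1/J (8.75) and C57BL/6J (8.74), which differed by less than the SD within groups (0.20), and lowest in BALB/cJ (8.17). In CR hearts its order was similar, where B6C3F1/J averaged 9.02, C57BL/6J averaged 8.75 and BALB/cJ averaged 8.18.

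Control hearts of C57BL/6J differed from the mean of the other strains in 12 of the 25 genes, where 36.8% of all genes did. The counts in the other strains were 5 in 129S1/SvImJ (15.9% of all genes), 4 in BALB/cJ (13.3%), 4 in CBA/J (19.1%), 2 in DBA/2J (8.31%), 2 in B6C3F1/J (8.41%) and 0 in C3H/HeJ (3.88%), so the strain with the most calls among the 25 also had the most among all genes. Timm13, Timm22, Timm23, Timm29, Timm50, Tomm40 and Tomm6 were lower and Timm8a1, Tomm20, Tomm40l, Tomm7 and Tomm70a higher, and these were also the control hearts with the highest atrial (9.90 ± 1.47) and white adipocyte (8.19 ± 1.06) marker means (SD, n = 8). With both marker means as covariates (26.6% of all genes called), of the 7 lower genes only Tomm6 was still lower (by 0.25, adjusted p = 0.00672), the 5 higher genes passed again, and Timm10, Timm17a, Timm44, Timm8b and Tomm22 passed as higher.

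**Figure D5:**
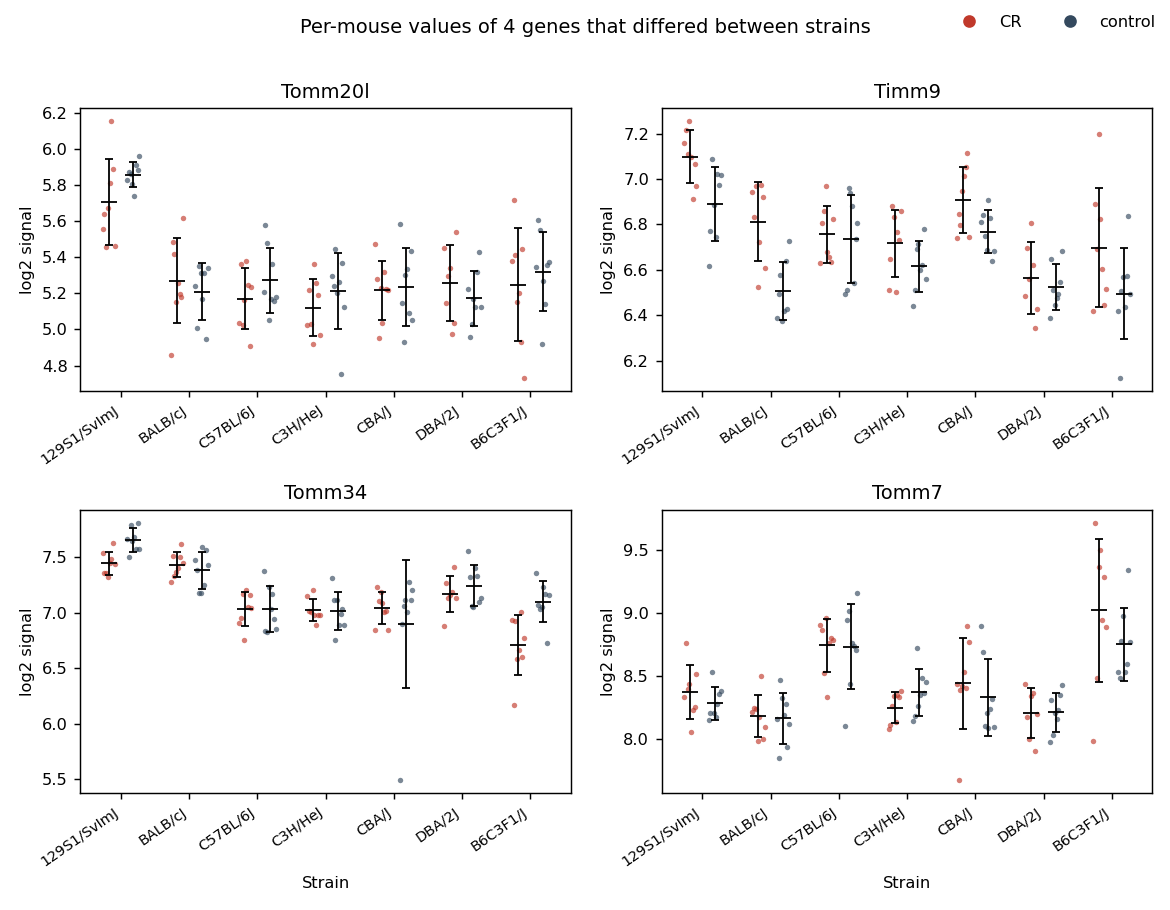
Log2 signal (y axis) of Tomm20l, Timm9, Tomm34 and Tomm7 in each heart by strain (x axis), CR to the left in red and control to the right in dark blue, black bars mean ± SD (n = 8, and 7 for DBA/2J CR). The 129S1/SvImJ control means are the highest control means for Tomm20l, Timm9 and Tomm34, and the low CBA/J control point of Tomm34 is replicate 1 at 5.50.

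The hybrid was set against the mean of its parents, C57BL/6J and C3H/HeJ. In control hearts 0 of the 25 genes differed (3 at an unadjusted p under 0.05), against 8.38% of all genes. In CR hearts 8 differed, 32.0% of the genes against 28.8% of all genes, so the share was near the background. Timm8b, Tomm20, Tomm5, Tomm6 and Tomm7 were higher and Timm29, Timm44 and Tomm34 lower in the hybrid. Tomm34 averaged 6.71 in CR hearts of B6C3F1/J and 7.03 in those of C57BL/6J and of C3H/HeJ (-0.32, adjusted p = 0.000466), and Tomm7 exceeded its parents by 0.52 (adjusted p = 0.00126). Atrial marker means were higher by 1.22 in CR hearts than in control hearts of the hybrid. Without B6C3F1/J CR replicate 2, which stood apart, 4 genes differed (Timm29, Timm44, Tomm34 and Tomm7), and with DBA/2J CR replicate 7 included, 1 did. With the atrial and white adipocyte means as covariates 11 did, the 8 and Timm10, Timm21 and Timm22, and these alternatives were chosen after seeing the data. Shares of all genes called in these alternatives are not given, so their counts have no background beside them. The CR effect itself did not differ by this test between the hybrid and the mean of its parents in any of the 25 genes (0 called and 4 at an unadjusted p under 0.05, against 3.45% of all genes called). Timm29 came nearest: it averaged 6.83 in CR and 7.13 in control hearts of the hybrid, 7.06 in CR and 6.79 in control hearts of C57BL/6J, and 7.24 on either diet in C3H/HeJ, a difference of effects of -0.45 ± 0.14 (SE, adjusted p = 0.0512).

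Partner genes of the import machines were described from lists, with values for those past the threshold across strains. Of 8 genes listed with the import motor, which pulls precursors into the matrix, 4 were higher in CR hearts. They were the nucleotide exchange factors Grpel1 (0.14 ± 0.04, adjusted p = 0.0161) and Grpel2 (0.14 ± 0.03, adjusted p = 0.000731) and the J-protein Dnajc19 (0.15 ± 0.04, adjusted p = 0.0104). The last was Romo1 (0.12 ± 0.04, adjusted p = 0.0162), an inner membrane protein listed with the motor. Hspa9, the chaperone at the center of the motor, gave -0.02 ± 0.04. Of outer membrane assembly and insertion, 3 of 6 were higher: Mtch2, an insertase of the outer membrane (0.21 ± 0.03, adjusted p = 3.09e-06), and the metaxins Mtx1 (0.12 ± 0.03, adjusted p = 0.00179) and Mtx2 (0.16 ± 0.05, adjusted p = 0.0103). Among matrix folding and inner membrane export genes 1 of 5 was higher, the insertase Oxa1l (0.15 ± 0.05, adjusted p = 0.0274). Of 6 presequence processing genes 0 passed in either direction (median -0.02, 1 at an unadjusted p under 0.05), and of 3 genes of oxidative folding in the intermembrane space 0 passed (median 0.02, 2 at an unadjusted p under 0.05).

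Of 77 mitochondrial ribosomal protein genes (Mrpl and Mrps), 40 were higher and 0 lower in CR hearts, with a median difference of 0.12, and of 35 complex I genes (Nduf), 8 were higher and 0 lower, with a median of 0.08. The median difference of the 25 import genes lay between those of both families, and no test of the difference between families was made. Of the ventricular cardiomyocyte markers 1 of 7 was higher, with a mean difference of 0.08, and of the macrophage markers 2 of 6 were higher, with a mean difference of 0.14. Of the endothelial markers 4 of 7 and of the white adipocyte markers 3 of 8 were lower in CR hearts, and the part of the endothelial and macrophage markers in the results was not tested. With the ventricular marker mean as a covariate, a fit added after seeing the data, 12 import genes were again higher and the mean difference over the 25 was 0.10. With the means of atrial and of white adipocyte markers as covariates 13 were higher and the mean was 0.11. In that fit 1681 of all genes were higher, against 1534 without covariates. The share of all genes in the fit with the ventricular mean is not given.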

How the data were processed

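Heart RNA of 112 male mice (14 groups of 8) had been hybridized to Affymetrix Mouse Gene 1.0 ST arrays, 1 mouse per array. Each deposited value is the log2 signal of a probe set. To obtain it the authors ran gene-level RMA-Sketch in Affymetrix Expression Console (by design of RMA, background correction, quantile normalization and median polish), in a version not given in the sources read. Quantile normalization would partly remove a shift of most genes, and background compresses differences of dim genes. An array has no read depth, so the number of arrays limits precision.

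The platform annotation names a single gene for 21789 of 35556 probe sets, several for 1621 and none for 12146. RefSeq (GRCm38.p6) held the gene identifiers of 21698. The brightest probe set stood for a gene (19938 genes, no filter). Genes were fitted with limma 3.58.1 in R 4.3.3, with 1 mean per group and 55 CR and 56 control arrays. The across-strain effect, the interaction and the hybrid contrast of the CR effect came from that fit. Strain levels, and the hybrid against its parents, came from fits of the control or the CR arrays alone, and within-strain effects from fits of each strain alone. Tests were 2-sided with Benjamini-Hochberg adjustment. Counts at an unadjusted p are given for the listed genes only, without the share of all genes. The scripts were tested on simulated data. Sequence search and plots used Python 3.11.15, pandas 2.3.3, numpy 2.4.6 and matplotlib 3.10.9.

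Up to 8 genes with the smallest p across strains, 5 with an interaction past the threshold, 6 with the smallest p between control strains and 2 per strain were given in full, as were partner genes past the threshold. The genes, the partner lists and the markers were chosen with earlier results of these data known. Alternatives left out arrays or strains and changed scaling, probe set choice, filter, variance model, block and covariates.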

Additional observations from a re-analysis of the deposited data

Results flagged for a closer look

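In 182 strain-by-diet groups (13 measures in 14 groups), 16 single arrays lay far from the rest of their group by Dixon's criterion. Chance flags about 1 in 20 groups, so 9.1 would be reached by chance. CBA/J control replicate 1, which stood apart over all genes, gave 5 of the 16, all low in log2 signal: Timm44 at 6.11, Timmdc1 at 7.90, Tomm34 at 5.50, Timm17a at 9.85 and Tomm40l at 6.53. That array was not low throughout. Of genes outside the 13 measures, Timm8b (11.18), Tomm5 (9.93), Tomm6 (8.24) and the dim Timm8a2 (4.35) had their highest control value in it. B6C3F1/J control replicate 7 gave 4, all high: the mean of the 25 genes at 7.97, Timm22 at 6.90, Tomm40l at 7.93 and Timm8a1 at 7.05. CBA/J CR replicate 2 was low in the mean of the 25 genes, at 7.35, and in Tomm7, at 7.68. Timm17a was low in C57BL/6J CR replicate 4, at 9.71, and in DBA/2J CR replicate 6, at 9.90. In 129S1/SvImJ, control replicate 3 was high in the mean of the 25 genes, at 7.76, and control replicate 1 was low in Timm21, at 7.69. Tomm20l was low in C3H/HeJ control replicate 6, at 4.75.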

How the results depend on the processing

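Including DBA/2J CR replicate 7 left 4 genes higher across strains, 11 that differed between strains in CR hearts and 1 between the hybrid and its parents in CR hearts. Leaving out the strain 129S1/SvImJ left 7 higher. Tomm34 became the 1 gene called lower without CBA/J control replicate 1, and 1 gene was also called lower without the strain CBA/J and with array weights. The interaction passed for 3 genes without all arrays that stood apart and for 4 with array weights. Within strains, the methods' t-test gave 26 calls at an unadjusted p under 0.01 (9 after Benjamini-Hochberg adjustment), and the marker covariates, added after seeing the data, gave 0. Without B6C3F1/J CR replicate 2, 4 genes differed between the hybrid and its parents in CR hearts. The causes of these changes were not tested. Except where a share of all genes is given above, these counts have no background beside them.

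The mean difference over the 25 genes stayed between 0.08 and 0.12 under every alternative, and leaving out single arrays that stood apart gave 12 to 13 genes higher, 0 to 1 lower, 0 with interaction, 16 to 19 differing between control hearts and 19 to 20 between CR hearts. For single genes, 595 values kept direction and side of the threshold, 10 newly passed and 16 no longer passed. In 3 cases the sign changed without passing: with DBA/2J CR replicate 7 Timm8b was at -0.0076 and Timm8a2 at 0.012, and with array weights Timm8a2 was at 0.0048. Of all calls across strains 63.9% were higher, 57.4% after another quantile normalization and 69.6% with arrays centred on their median. With the replicate block 12 genes were higher and 0 lower across strains, and 9 were called within strains. Of 55 same-numbered pairs 28 correlated above 0.1 (-0.44 to 0.67), so not every pair did and the numbers were not taken as pairs. As a hint from the data, not the design, 31 of 110 arrays correlated best with their own number. Each had 7 or 8 arrays of the other diet to match, so a random match would fall on the own number in 1 of 7 or 1 of 8 arrays. The 31 of 110 lay above that share. Whether mice of the same number were handled together was not tested. Signals are relative to each array's background, so dim genes such as Timm8a2 are measured least well.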
